A study of Mus musculus with 6 samples.

Results

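Interferon-stimulated genes are the transcripts that cells switch on after interferons bind their receptors. The module described here held 52 listed mouse genes, matched by symbol, and 51 of them were among the 31053 genes counted. The list was chosen with earlier results of these data known. The listed gene Mx2 was not among the counted features and was not analysed here. Of the 51 members, 9 were taken as gamma-induced (the guanylate binding proteins Gbp2 to Gbp7 and the immunity-related GTPases Igtp, Irgm1 and Irgm2), and the other 42 were taken as type I and other members.

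Type I interferons signal through the receptor pair Ifnar1 and Ifnar2 and engage Stat2 and Irf9, which act at the interferon-stimulated response element (ISRE) in promoters. Interferon gamma, made mainly by T cells and NK cells, signals through Ifngr1 and Ifngr2, and promoters of its targets often hold the gamma-activated site (GAS). Many members answer to both signals, so the division into type I and gamma-induced genes is one of preference. In tumours these genes are known as a readout of interferon exposure in immune, stromal and malignant cells.

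The data were single-cell transcriptomes from mouse cells whose labelled source was YUMM2.1, a mouse melanoma line, in an Empty vector library and a Bmal1 WT library. Bmal1 encodes a clock transcription factor. Each library pooled 3 replicates marked with hashtag antibodies, h1, h7 and h8 for Empty vector and h3, h5 and h9 for Bmal1 WT. The labels gave neither the sex, age or number of animals, nor whether the hashtagged replicates came from separate tumours, so p-values measure only the spread between these replicates. Each group was 1 library, so group and library cannot be told apart. Counts are unique molecular identifiers (UMIs), each standing for 1 captured transcript end, so levels of different genes are compared per molecule and not per length.

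The Empty vector library held 3978 cells with a median of 5094 UMIs and the Bmal1 WT library 2386 cells with a median of 7570.5 UMIs. Exactly 1 hashtag was called on 3222 and 1621 of these cells, and 5 barcodes were shared by the libraries. Cells were gated into classes by 8 marker genes per class, with at least 3 of them detected. Against the labelled source, melanoma markers gated only 112 Empty vector and 289 Bmal1 WT cells, and most other cells carried immune markers. Of the cells with 1 hashtag, the T cell gate took between 70 and 449 cells per replicate, the NK cell gate 65 to 358 and the monocyte gate 51 to 296. The gates left 378 and 408 cells without a class. Of the cells kept, 319 and 255 also reached 3 markers of another lineage.

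The promoter sequences that carry the response elements are shown first, because they bear on the division of the module. RefSeq promoters on GRCm38.p6, covering the 250 bases before the annotated start, were matched by symbol for 39 of the 51 members. The ISRE core, spelled GAAANNGAAA and searched on both strands, stood in 22 of these 39 promoters (56.4%), against 3.46% of all 27025 genes with a promoter. It stood in 7 of 7 matched gamma-induced members and in 15 of 32 matched type I and other members (46.9%). The GAS, spelled TTCNNNGAA and searched in the same way, stood in 4 of 7 gamma-induced members (57.1%) and 4 of 32 others (12.5%), against 8.13% of all genes. A match of letters is a description of the window and not a bound site, and the 2 motifs shared bases in 1 of the 39 promoters, that of Bst2.

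The windows below hold an ISRE core in capitals, read 5′ to 3′ on the strand of the gene. They show an antiviral effector set (Isg15, Ifit3, Rsad2), members with low p-values in lymphocytes or myeloid cells (Slfn5, Phf11b), the signal transducer Stat2, and gamma-induced GTPases (Gbp2, Gbp7, Igtp). The Slfn5 match runs into a stretch of A bases, and its window lies inside the gene in the GENCODE M21 annotation (82951349 to 82964840). The Gbp2 window crosses the start of the gene in that annotation (142620602).
Isg15 (chr4:156200865-156200894, minus strand): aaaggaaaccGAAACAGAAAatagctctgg
Ifit3 (chr19:34583397-34583426, plus strand): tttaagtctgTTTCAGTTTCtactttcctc
Rsad2 (chr12:26456553-26456582, minus strand): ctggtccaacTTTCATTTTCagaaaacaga
Slfn5 (chr11:82951937-82951966, plus strand): ccttcaaagtGAAAAAGAAAaaaaaaaaag
Stat2 (chr10:128270266-128270295, plus strand): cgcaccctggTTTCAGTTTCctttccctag
Phf11b (chr14:59341361-59341390, minus strand): cacatttagaGAAAAAGAAActagaaacta
Gbp2 (chr3:142620594-142620623, plus strand): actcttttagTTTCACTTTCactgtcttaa
Gbp7 (chr3:142530273-142530302, plus strand): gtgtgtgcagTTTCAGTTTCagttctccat
Igtp (chr11:58199512-58199541, plus strand): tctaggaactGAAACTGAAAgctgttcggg

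The next windows hold a GAS in capitals, at 2 gamma-induced members and at Irf1, a transcription factor known to be raised by interferon gamma.
Irf1 (chr11:53769914-53769942, plus strand): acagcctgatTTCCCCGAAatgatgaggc
Igtp (chr11:58199501-58199529, plus strand): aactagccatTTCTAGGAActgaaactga
Gbp7 (chr3:142530239-142530267, plus strand): aagcagaagcTTCTCAGAAagtcagcaca

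The members were also grouped along the genome. In GENCODE M21 on GRCm38, 32 of the 51 lay in 12 clusters, in which neighbouring members were no more than 1000000 bases apart. The IFIT genes Ifit1, Ifit2, Ifit3 and Ifit3b, which bind viral RNA, formed a cluster on chromosome 19 from 34550694 to 34650009. The Gbp genes split between chromosome 3 (142493978 to 142638008, Gbp2, Gbp3, Gbp5 and Gbp7) and chromosome 5 (105115767 to 105293698, Gbp4 and Gbp6). Rsad2 and Cmpk2, whose products both act on nucleotide pools of infected cells, lay side by side on chromosome 12 (26442746 to 26479837). The annotations of 20 members overlapped another gene, among them Igtp with Irgm2, Ifi203 with Mndal, Ifi47 with Olfr56 and Irf9 with Rnf31 on the same strand, and reads of such genes or of close copies (Ifit3 and Ifit3b, Gbp3 and Gbp7, Phf11b and Phf11d, the Schlafen genes) may have been split between them.

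The summed level of the members differed widely between classes. A summed level is the members' UMIs in a replicate divided by all UMIs of the class there, times 1000000 (CPM). Monocytes held the most, at 14779, 10025 and 16161 CPM in Empty vector h1, h7 and h8 and 11794, 9352 and 8577 CPM in Bmal1 WT h3, h5 and h9. Their mean of 11781 CPM was followed by macrophages (5306), plasmacytoid dendritic cells (5216), fibroblasts (5159) and cDC2, a conventional dendritic cell class (4789). T cells averaged 3178 CPM, with CD4 T cells at 3714 and CD8 T cells at 2765. Mature dendritic cells (2480), cDC1 (2251), melanoma cells (2189) and NK cells (1854) were lowest.

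Monocytes exceeded macrophages of the same replicate in 6 of 6 replicates. The ranges overlapped only through macrophages of Empty vector h1, at 9963 CPM against 2649 to 5601 CPM in the other macrophage replicates and a monocyte minimum of 8577 CPM. For the type I and other members alone, the 6 monocyte replicates (8035 to 14288 CPM) lay wholly above the 6 replicates of the next class, plasmacytoid dendritic cells (3301 to 7199 CPM). All other neighbouring classes in the order overlapped, so the macrophage, plasmacytoid, fibroblast and cDC2 levels cannot be ranked against their spread. Monocytes exceeded NK cells in 6 of 6 replicates, since the highest NK replicate held 2217 CPM. The monocyte gate used Ly6c2 and Plac8 and the cDC1 gate Tlr3, which interferon can raise. With gates that left these genes out, monocytes averaged 12492 CPM and macrophages 7444 CPM, still the highest means.

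**Figure D1:**
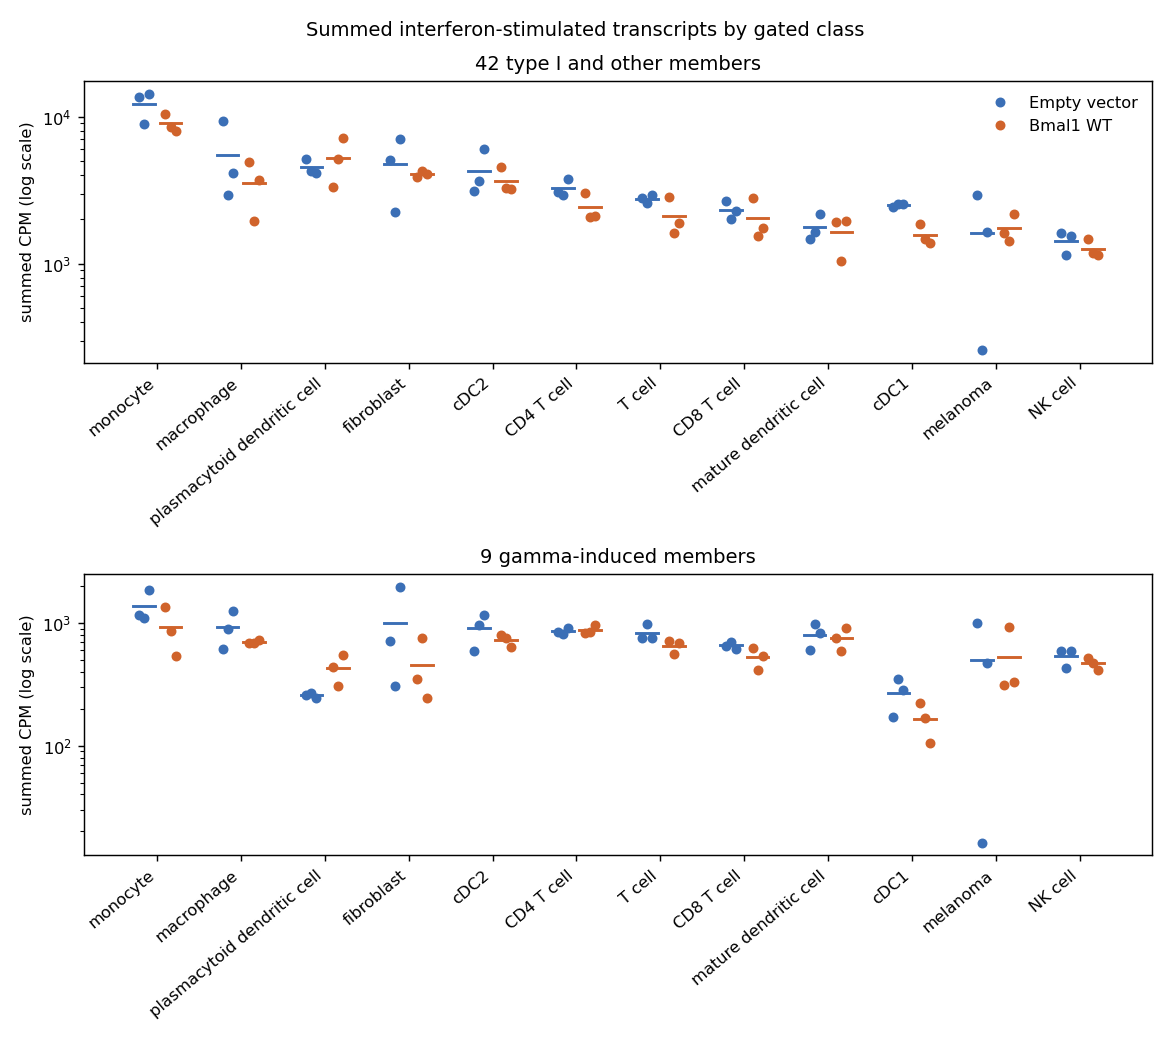
Summed CPM on a log axis for the 42 type I and other members (upper panel) and the 9 gamma-induced members (lower panel) in 12 gated classes, with a point for each of 3 Empty vector (blue) and 3 Bmal1 WT (orange) replicates and a bar at the group mean. Monocytes lie highest in the upper panel (8035 to 14288 CPM). In the lower panel monocytes average 1150 CPM and CD4 T cells 872 CPM. There, classes next to each other in the order of gamma-induced means overlap. Classes further apart need not, such as CD4 T cells (823 to 974 CPM) and NK cells (414 to 597 CPM).

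The classes also differed in which members made up the level. In monocytes, Ifitm3, a membrane protein that blocks virus entry, gave 15.3% of member UMIs and Ifi27l2a 13.3%. They were followed by the DNA-sensing PYHIN gene Ifi204 (6.6%), Slfn5 (6.2%) and Rsad2 (4.9%), which encodes the antiviral enzyme viperin. T cells were led by Ifi27l2a (16.4%), the PYHIN gene Ifi203 (7.8%) and the GTPase gene Ifi47 (6.0%), and NK cells by Ifi203 (10.6%), Gbp7 (9.8%) and Ifi47 (8.5%). Plasmacytoid dendritic cells were led by Bst2 (29.9%), which encodes tetherin and is a known surface marker of these cells, at a mean of 1535 CPM against 254 CPM in monocytes. Mature dendritic cells were led by Irf1 (16.6%), Gbp2 (12.1%) and Gbp5 (10.6%). Fibroblasts were led by Ifitm3 (26.5%) and Iigp1 (11.2%), an immunity-related GTPase, whose mean of 514 CPM compared with 32.2 CPM in monocytes and 2.35 CPM in NK cells. Melanoma cells were led by Ifitm3 (20.9%), Gbp2 (11.8%) and Bst2 (6.9%), and cDC1 by Ifi205 (15.4%). Ifitm3 gave 24.0% of member UMIs in cDC2.

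By role, the membrane restriction factors Ifitm3 and Bst2 together averaged 2233 CPM in monocytes, 1822 CPM in plasmacytoid dendritic cells and 1749 CPM in fibroblasts, but 142 CPM in T cells and 69 CPM in NK cells. The viperin locus (Rsad2 and Cmpk2) averaged 615 CPM in monocytes and 305 CPM in macrophages against 61 CPM or less in dendritic cells, T cells and NK cells. The IFIT genes averaged 370 CPM in monocytes and 18 CPM in mature dendritic cells. The 4 Schlafen genes averaged 1085 CPM in monocytes and 5 CPM in melanoma cells. Transcription factor members averaged 658 CPM in plasmacytoid dendritic cells, 601 CPM in monocytes and 518 CPM in mature dendritic cells. Guanylate binding proteins ranged from 106 CPM in cDC1 to 848 CPM in monocytes. Isg15, a ubiquitin-like protein and widely used marker of the response, averaged 301 CPM in monocytes, 158 CPM in cDC2, 144 CPM in fibroblasts, 39.2 CPM in T cells and 15.4 CPM in NK cells.

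**Figure D2:**
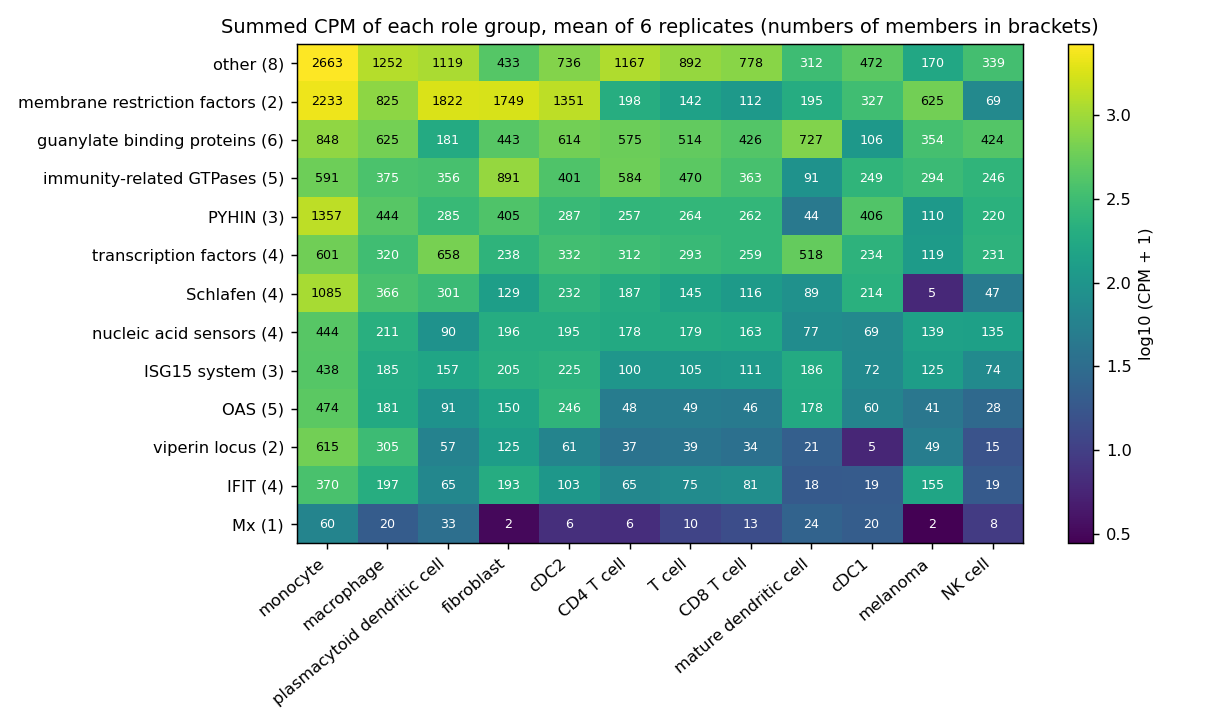
Summed CPM of each role group (rows, numbers of members in brackets) in each gated class (columns), as the mean of 6 replicates, coloured by log10 of CPM plus 1. Monocytes have the highest mean in 11 of 13 role groups, and the exceptions are transcription factors (plasmacytoid dendritic cells, 658 CPM) and immunity-related GTPases (fibroblasts, 891 CPM).

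The balance of type I and gamma-induced transcripts was next compared between classes, as the log2 ratio of the summed levels in each replicate. Plasmacytoid dendritic cells had the highest mean ratio, 3.85 ± 0.49 (SD, n = 6) on the log2 scale, followed by cDC1 (3.29 ± 0.38) and monocytes (3.27 ± 0.39). Mature dendritic cells had the lowest, 1.11 ± 0.29, with NK cells at 1.42 ± 0.06 and T cells at 1.70 ± 0.27. Before taking logs, the ratio ran from 7.59 to 19.6 in plasmacytoid dendritic cells and from 1.67 to 2.64 in mature dendritic cells, so these classes did not overlap. The plasmacytoid ratios rested on 231 gamma-induced UMIs in all, and on 7, 5 and 1 cells in Bmal1 WT h3, h5 and h9. In cDC1, Empty vector h7 held 5 cells. The NK cell ratios lay between 2.49 and 2.80 in all 6 replicates, the narrowest range of the classes, and did not overlap with the monocyte ratios of 7.63 to 14.8.

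Gamma-induced members made up 30.7% of member UMIs in mature dendritic cells, 27.4% in melanoma cells, 27.2% in NK cells and 22.3% in T cells, against 9.77% in monocytes, 9.02% in cDC1 and 6.30% in plasmacytoid dendritic cells. In CPM, the gamma-induced sum itself was highest in monocytes, at 1160, 1097 and 1873 CPM in Empty vector and 1360, 869 and 542 CPM in Bmal1 WT. The gene Ifng, the ligand, was counted with 824 UMIs in T cells and 712 in NK cells, but with 5 UMIs or fewer in each myeloid class and 0 in melanoma cells. Type I ligand transcripts were nearly uncounted. Ifnb1 had 1 UMI over all cells with 1 hashtag, and the 4 Ifna genes of the pathway list (Ifna1, Ifna2, Ifna4 and Ifna5) were at 0.

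**Figure D3:**
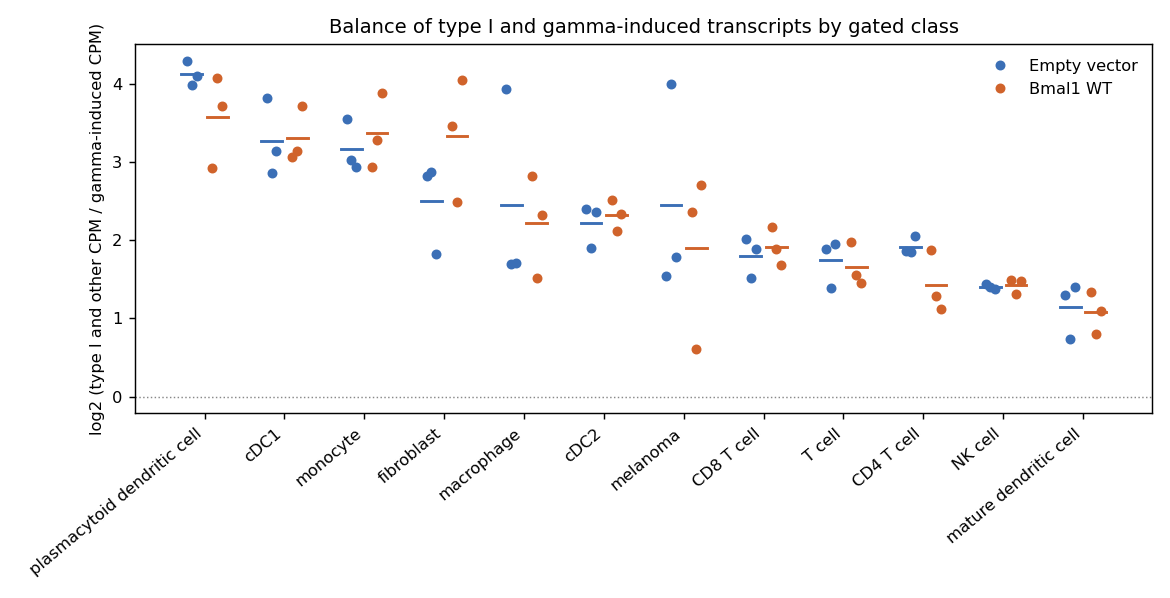
Log2 ratio of type I and other CPM to gamma-induced CPM for 12 gated classes, ordered by their mean, with a point per replicate (Empty vector blue, Bmal1 WT orange) and a bar at each group mean; the dotted line marks equal sums. Plasmacytoid dendritic cells (mean 3.85, with 1 to 17 cells per replicate) stand at the left and mature dendritic cells (1.11) at the right. Empty vector and Bmal1 WT points overlap in each class.

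The 2 groups were then compared within each class. UMIs were summed per replicate and tested with edgeR's quasi-likelihood test over all genes with at least 100 UMIs in the class, for the 8 classes with 10 cells or more in each replicate and for all cells together. After Benjamini-Hochberg adjustment over all genes tested, edgeR called 0 members in each of these 9 comparisons, and DESeq2 called 0 in the 8 classes and 4 over all cells. Members below 100 UMIs are in no count, such as Gbp6 in monocytes. The share of all genes called was 0.123% in T cells (10 of 8133 genes), 0.299% in NK cells (22 of 7347) and 0% in CD8 T cells, CD4 T cells, monocytes, macrophages, cDC2, mature dendritic cells and all cells. Counts of members with a log2 fold change below 0 are to be read beside the share of all genes tested that were below 0. This share was 60.7% in T cells, 59.9% in CD8 T cells, 59.1% in CD4 T cells and 62.9% in NK cells. It was 58.0% in monocytes, 56.5% in macrophages, 54.1% in cDC2, 56.6% in mature dendritic cells and 51.6% over all cells. Smaller p-values were common among the members of some classes, and they are given below as values. For the fits as reported, the share of all genes that met the same criterion stands beside the counts. For DESeq2, left-out replicates and other alternatives, this share is not given at an unadjusted p under 0.05. Those counts of members cannot be set against all genes.

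In monocytes, 50 of the 51 members had enough UMIs to be tested and all 50 had a log2 fold change below 0 for Bmal1 WT over Empty vector, with a median of -0.64 against -0.06 for all 6459 genes tested. An unadjusted p under 0.05 with a lower level in Bmal1 WT was found for 26 of the 50 (52.0%), against 6.6% of all genes. For 17 of the 50, the highest Bmal1 WT replicate was under the lowest Empty vector replicate (34.0%), against 12.2% of all genes. With DESeq2 on the same sums, 20 members had an unadjusted p under 0.05 and 0 were called, while edgeR without the filter on gene counts called 18 (35.3%, against 1.16% of all genes). The number with an unadjusted p under 0.05 was 14 without Bmal1 WT h9, 16 without Empty vector h1 and 17 without Empty vector h8. The summed level averaged 13655 CPM in the Empty vector replicates and 9908 CPM in those of Bmal1 WT, but the groups overlapped, because Bmal1 WT h3 (11794 CPM) lay above Empty vector h7 (10025 CPM).

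The member with the smallest p in monocytes was Cmpk2, a mitochondrial nucleotide kinase gene, at 115, 82.5 and 188 CPM in Empty vector h1, h7 and h8 and 53.4, 55.5 and 40.7 CPM in Bmal1 WT h3, h5 and h9. The groups did not overlap, and the log2 fold change was -1.38 ± 0.29 (SE; edgeR adjusted p = 0.296). Phf11d, a PHD-finger gene, stood at 64.1, 50.3 and 63.0 CPM against 36.0, 22.6 and 23.6 CPM, a log2 fold change of -1.05 ± 0.24. Slfn5, a Schlafen gene, stood at 1041, 684 and 994 CPM against 637, 413 and 392 CPM, or -0.91 ± 0.22. Irf7, the factor that amplifies type I responses, stood at 196, 167 and 233 CPM against 132, 115 and 124 CPM, or -0.69 ± 0.17. For these genes the groups did not overlap, while the edgeR adjusted p was 0.296 for each.

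The 2 most abundant monocyte members, Ifitm3 and Ifi27l2a, lay close to 0. Ifitm3 stood at 2200, 1924 and 1963 CPM in Empty vector and 2001, 1513 and 2274 CPM in Bmal1 WT, a log2 fold change of -0.07 ± 0.15. Ifi27l2a had -0.05 ± 0.19 and Bst2 -0.04 ± 0.18, and the sign of both turned positive under TMM scaling (0.02 and 0.03). Other abundant members had lower values, Slfn5 as given above and Ifi204 with -0.61 ± 0.25. Rsad2 had -0.97 ± 0.51, with replicates at 805, 221 and 1053 CPM against 256, 621 and 199 CPM that overlapped. Ifit3 had -0.65 ± 0.33 and Isg15 -0.38 ± 0.34. The 4 IFIT genes ranged from -1.17 to -0.46, and the 5 genes of the OAS group from -0.74 to -0.55. Stat2 had -0.62 ± 0.22. Of the gamma-induced members tested in monocytes, 8 of 8 were below 0 with a median of -0.56, beside a type I median of -0.65. Igtp had -0.73 ± 0.27 and Gbp2 -0.44 ± 0.42, and Gbp2 turned to 0.06 without Empty vector h8. Irf1 (-0.41 ± 0.31), Iigp1 (-0.45 ± 0.59) and Ifi204 also had overlapping groups.

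**Figure D4:**
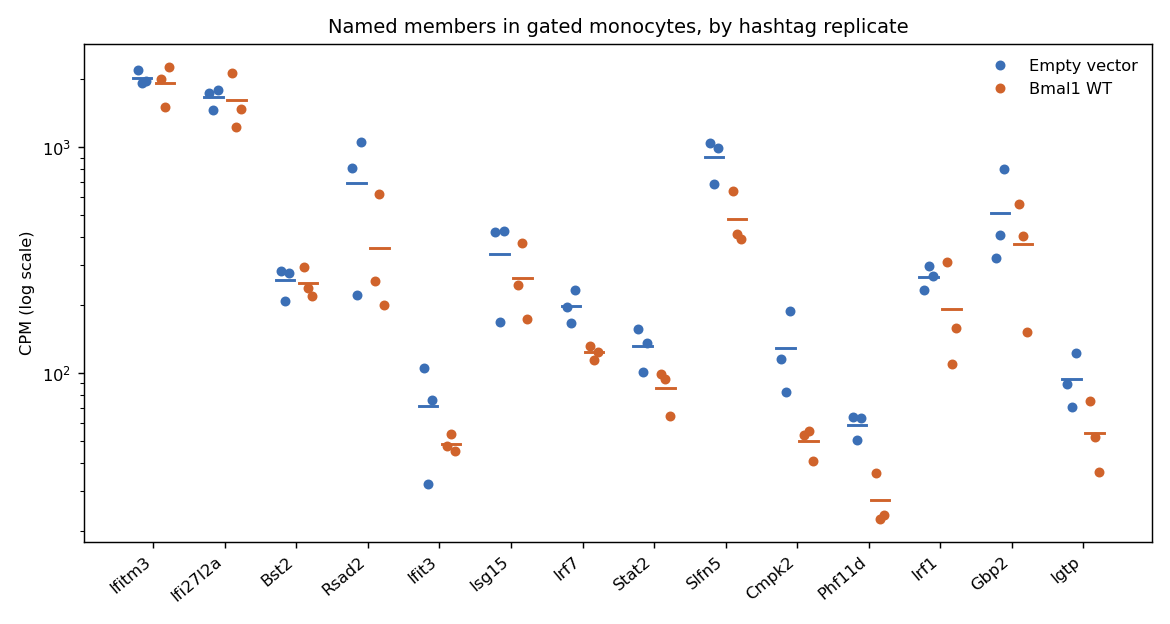
CPM on a log axis of 14 members in gated monocytes, with a point per replicate (Empty vector blue, Bmal1 WT orange) and a bar at each group mean. The groups overlap for Ifitm3, Ifi27l2a, Bst2, Rsad2, Ifit3, Isg15, Irf1, Gbp2 and Igtp and do not overlap for Irf7, Stat2, Slfn5, Cmpk2 and Phf11d.

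Other measures differed between the monocyte replicates as well. The median UMIs per monocyte were 7247 to 7855 in Empty vector and 9451 to 10341 in Bmal1 WT. The classical markers Ly6c2, Ccr2, Chil3 and Plac8 summed to 7705 to 9041 CPM in Empty vector and 5670 to 7894 CPM in Bmal1 WT, and the heat shock genes Hspa1a and Hspa1b to 586 to 2130 CPM and 1709 to 3111 CPM. Of other classes, T cell markers summed to 2.14 to 123 CPM and NK cell markers to 12.8 to 165 CPM in the monocyte replicates. Their part in the result was not tested. When each monocyte was thinned to 2000 UMIs, leaving out 15 Empty vector and 14 Bmal1 WT cells, the median cell held 21 type I UMIs in Empty vector (10th to 90th percentile 8.0 to 49.0) and 16 in Bmal1 WT (5.0 to 35.9). The pooled median of Empty vector was thus higher at equal depth, and the cells overlapped widely. Cells of the 3 replicates were pooled for these medians, which therefore carry no spread between replicates. Before thinning, h1, h7 and h8 gave 296, 54 and 191 monocytes, and h3, h5 and h9 gave 162, 53 and 51.

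In T cells, 44 members were tested, 39 of them below 0, with a median of -0.45 against -0.09 for all 8133 genes tested. A lower level in Bmal1 WT at an unadjusted p under 0.05 was found for 18 of 44 (40.9%), against 12.7% of all genes, and 17 of 44 (38.6%) had groups that did not overlap, with Bmal1 WT lower, against 16.9% of all genes. DESeq2 called 0 members and gave 13 an unadjusted p under 0.05, while edgeR without the filter on gene counts called 15 (29.4%, against 5.07% of all genes). The median was -0.72 without Bmal1 WT h3, with 27 members at an unadjusted p under 0.05, and -0.31 without Bmal1 WT h5, with 12. Slfn5 had the smallest p, at 60.9, 92.1 and 76.6 CPM in Empty vector and 45.0, 14.1 and 27.1 CPM in Bmal1 WT, a log2 fold change of -1.33 ± 0.32 (edgeR adjusted p = 0.083). Herc6, which attaches Isg15 to proteins, had -0.77 ± 0.20 (edgeR adjusted p = 0.087) and Rtp4 -1.04 ± 0.28 (edgeR adjusted p = 0.094). Their groups did not overlap either, and none passed the threshold of 0.05, although Rtp4 did without the cells that held markers of another lineage (edgeR adjusted p = 0.043), where it was the only member called of 38 (2.63%, against 3.61% of all genes).

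The 3 IFIT genes tested in T cells ranged from -1.54 to -0.26 and the 3 OAS genes from -1.38 to 0.18. Ifit3 had -1.30 ± 0.40 and Rsad2 -1.05 ± 0.37. Of the transcription factors and GTPases, Irf7 stood at -0.60 ± 0.21, Stat2 at -0.54 ± 0.24, Igtp at -0.61 ± 0.20 and Gbp2 at -0.54 ± 0.25. Of the 3 most abundant members, Ifi27l2a (510, 468 and 629 CPM against 812, 306 and 361 CPM) had -0.10 ± 0.30, Ifi203 -0.27 ± 0.11 and Ifi47 -0.42 ± 0.14. Irf1 had -0.15 ± 0.17. Bst2 (0.04 ± 0.17) and Iigp1 (0.33 ± 0.38) were above 0 but within 1 SE, Isg15 had -0.32 ± 0.31 and Ifitm3 -0.92 ± 0.53. The summed level was 3542, 3554 and 3675 CPM in Empty vector and 3552, 2182 and 2565 CPM in Bmal1 WT. Bmal1 WT h3 lay among the Empty vector values, and h5 and h9 lay below them. Melanoma markers summed to 120 CPM in T cells of h5 against 10.0 to 31.0 CPM in the other replicates, and the classical monocyte markers to 492 and 540 CPM in h5 and h9 against 889 to 1108 CPM in the others; their part in the result was not tested.

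CD4 and CD8 T cells, which are subsets of these T cells, had smaller counts. Of 28 members tested in CD4 T cells, 20 were below 0 (median -0.44) and 9 had an unadjusted p under 0.05 with a lower level (32.1%, against 10.3% of all 4294 genes). Slfn5 stood at 87.6, 184 and 110 CPM in Empty vector and 49.4, 11.6 and 5.21 CPM in Bmal1 WT, a log2 fold change of -2.15 ± 0.48 (edgeR adjusted p = 0.102). Rsad2 had -2.54 ± 0.76 on 102 UMIs, Gbp4 -0.76 ± 0.25 and Isg15 -1.11 ± 0.43. Iigp1 went the other way, at 41.6, 31.2 and 103 CPM in Empty vector and 105, 128 and 182 CPM in Bmal1 WT, a log2 fold change of 1.10 ± 0.38 (edgeR adjusted p = 0.190). The gamma-induced members of CD4 T cells had a median of 0.11, with 2 of 8 tested below 0, and Gbp2 (0.24 ± 0.34) and Igtp (0.15 ± 0.24) lay within 1 SE of 0. Ifi27l2a (-0.16 ± 0.28), Ifi203 (-0.45 ± 0.19), Ifi47 (-0.55 ± 0.19), Irf1 (-0.20 ± 0.33), Stat2 (-0.61 ± 0.36), Ifitm3 (-0.49 ± 0.86) and Bst2 (0.08 ± 0.22) did not pass the threshold. Melanoma markers summed to 477 CPM in CD4 T cells of h5 against 5.21 to 15.3 CPM in the other replicates, and their part in the result was not tested. Without the cells that held markers of another lineage, the CD4 median was -0.08 over 23 members tested, and without Empty vector h8 it was -0.22, with 4 members at an unadjusted p under 0.05. Without Bmal1 WT h3, edgeR called Slfn5 and Ddx58, a cytosolic RNA sensor gene, with adjusted p-values of 0.0142 and 0.0235 (2 of 25 members, against 3.31% of all genes), and without the filter on gene counts it called 6 of 51 members (11.8%, against 2.21% of all genes).

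Of 35 members tested in CD8 T cells, 28 were below 0 (median -0.34) and 5 had an unadjusted p under 0.05 with a lower level (14.3%, against 6.35% of all 6077 genes). Igtp stood at 76.0, 93.3 and 86.4 CPM in Empty vector and 49.9, 39.1 and 53.6 CPM in Bmal1 WT, a log2 fold change of -0.85 ± 0.22 (edgeR adjusted p = 0.442). Xaf1 had -0.72 ± 0.24 and Gbp2 -0.59 ± 0.21. The remaining named members had log2 fold changes between -1.02 ± 0.80 (Ifitm3) and 0.36 ± 0.26 (Bst2), with Isg15 at 0.17 ± 0.36. The CD8 median was -0.015 without Bmal1 WT h5, with 2 members at an unadjusted p under 0.05, and -0.63 without h3, with 14.

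In NK cells, 23 of 33 members tested were below 0, beside 62.9% of all 7347 genes. The members' median was -0.13 against -0.09 for all genes. The median rested on single replicates, at 0.018 without Empty vector h1 and -0.062 without Bmal1 WT h5, but -0.27 without Empty vector h7 and -0.25 without Bmal1 WT h3, and the last 2 settings gave 4 and 5 members an unadjusted p under 0.05. Only Irf9, which acts with Stat2 in the type I response, had an unadjusted p under 0.05 (3.03% of the members, against 8.25% of all genes), at -0.61 ± 0.24 (edgeR adjusted p = 0.309). Irf1 was the 1 member whose groups did not overlap (3.03%, against 12.9% of all genes), at 148, 143 and 135 CPM in Empty vector and 131, 124 and 109 CPM in Bmal1 WT. Ifi203 (0.01 ± 0.16), Gbp7 (-0.24 ± 0.15), Ifi47 (-0.20 ± 0.15), Stat2 (-0.36 ± 0.30), Gbp2 (0.09 ± 0.24), Igtp (-0.30 ± 0.27) and Rsad2 (-0.17 ± 0.56) did not pass the threshold, and neither did Bst2 (0.45 ± 0.26) or Ifi27l2a (0.48 ± 0.50). The summed level was 2217, 1574 and 2133 CPM in Empty vector and 1992, 1645 and 1564 CPM in Bmal1 WT. Whether the fold changes of NK cells differ from those of monocytes was not tested.

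**Figure D5:**
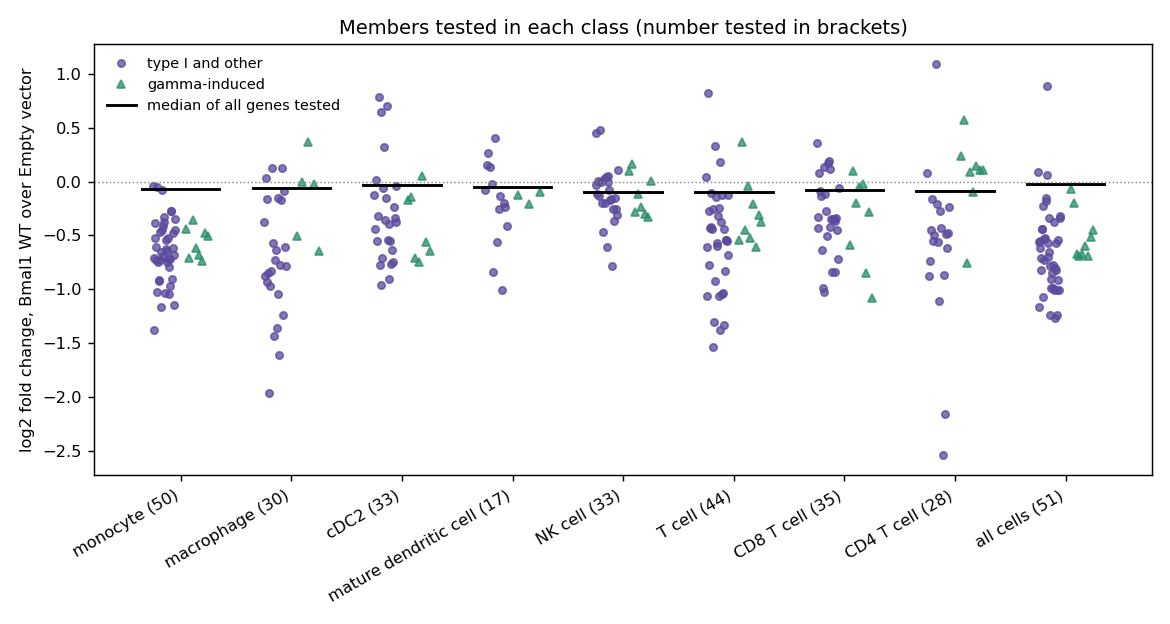
Log2 fold change, Bmal1 WT over Empty vector, of each member tested in 8 classes and in all cells (number tested in brackets), with circles for type I and other members, triangles for gamma-induced members and a black line at the median of all genes tested. The 50 monocyte members lie below 0, while NK cell members lie around the all-gene median of -0.09; 0 members passed the adjusted threshold in any column.

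In macrophages, 26 of 30 members tested were below 0 with a median of -0.64 against -0.06 for all 3275 genes, and 4 had an unadjusted p under 0.05 with a lower level (13.3%, against 5.59%). Phf11b (-1.05 ± 0.38), Ifi47 (-0.85 ± 0.33) and Oasl2 (-1.35 ± 0.52) had the smallest p-values (edgeR adjusted p = 0.514 for each). Empty vector h1 stood apart from the other replicates. Rsad2 stood at 1075 CPM there, against 10.5 and 105 CPM in h7 and h8 and 290, 58.2 and 56.5 CPM in Bmal1 WT, and its log2 fold change of -1.61 ± 1.15 turned to 1.36 without h1. Without h1 the median over 20 members tested was -0.31, and without Bmal1 WT h5 it was -0.41. The number at an unadjusted p under 0.05 was 1 in each of these settings, 2 without Empty vector h8, 7 without Bmal1 WT h3 and 10 without Empty vector h7. Both other gates gave a lower median, -0.95. With gates without Ly6c2, Plac8 and Tlr3, 42 of 44 members were below 0 and 22 had an unadjusted p under 0.05. With these gates the genes tested rose from 3275 to 4421 in macrophages and fell from 6459 to 5117 in monocytes, so the classes did not hold the same cells. Without cells holding markers of 2 lineages, 27 of 27 were below 0 and 15 had an unadjusted p under 0.05. The share of all genes at that p is not given for these settings. Without the filter on gene counts edgeR called 8 of 51 members (15.7%, against 0.915% of all genes), Rsad2 among them although its sign turned without h1. Ifi27l2a (-0.16 ± 0.44), Ifitm3 (-0.83 ± 0.47), Irf7 (-1.43 ± 0.77), Isg15 (-0.64 ± 0.80), Irf1 (-0.57 ± 0.29) and Gbp2 (-0.51 ± 0.46) overlapped between the groups. The complement genes C1qa, C1qb and C1qc, which mark macrophages, summed to 2695 to 4314 CPM in Empty vector and 3509 to 6953 CPM in Bmal1 WT, the classical monocyte markers to 2551 to 3632 CPM and 1698 to 2133 CPM, and T cell markers to 7.03 to 448 CPM and 0 to 469 CPM; their part in the result was not tested.

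In cDC2, 27 of 33 members tested were below 0 (median -0.38 against -0.03 for all 4208 genes), and 2 had an unadjusted p under 0.05 with a lower level (6.06%, against 4.16%). These were Phf11b, at 97.2, 152 and 165 CPM in Empty vector and 88.7, 70.0 and 51.7 CPM in Bmal1 WT (log2 fold change -0.90 ± 0.27, edgeR adjusted p = 0.600), and Ifi47 (-0.78 ± 0.29, edgeR adjusted p = 0.630). Ifitm3 (-0.06 ± 0.22), Gbp2 (-0.17 ± 0.33) and Ifi27l2a (0.78 ± 0.44), the leading members, did not pass, and neither did Isg15 (0.71 ± 0.52). The median was -0.08 without Empty vector h8, and 6 members had an unadjusted p under 0.05 without Empty vector h1 and also without h7. Without the filter on gene counts edgeR called Ifi27l2a alone, higher in Bmal1 WT (1.96% of the members, against 0.354% of all genes). In mature dendritic cells, 13 of 17 members tested were below 0 (median -0.13 against -0.05 for all 3675 genes), and 2 had an unadjusted p under 0.05 with a lower level (11.8%, against 3.76%). Phf11b stood at 94.5, 109 and 89.0 CPM in Empty vector and 72.0, 20.9 and 52.9 CPM in Bmal1 WT (-1.0 ± 0.38, edgeR adjusted p = 0.758), Irf9 had -0.84 ± 0.37, and Oasl1 had -0.56 ± 0.31. The leading members Irf1 (-0.03 ± 0.22), Gbp2 (-0.13 ± 0.24) and Gbp5 (-0.10 ± 0.19) lay within 1 SE of 0. The median here was -0.38 without Bmal1 WT h3, -0.31 without Empty vector h1 and -0.25 without Bmal1 WT h9, but -0.039 without Empty vector h7 and -0.0047 without Bmal1 WT h5.

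Over all cells with 1 hashtag, 48 of 51 members were below 0 (median -0.66 against -0.02 for all 12042 genes), and 15 had an unadjusted p under 0.05 with a lower level (29.4%, against 14.6%). The number at an unadjusted p under 0.05 was 5 without Empty vector h1, Empty vector h8 or Bmal1 WT h9, 8 without Bmal1 WT h5, and 31 without Empty vector h7 or Bmal1 WT h3. Here a change in the share of a class and a change of level within it cannot be told apart. Ifi47 (-1.07 ± 0.23), Igtp (-0.69 ± 0.16) and Gbp7 (-0.60 ± 0.14) had the smallest p-values (edgeR adjusted p = 0.151 for each). DESeq2 called these genes and Phf11b (7.84% of the members, against 8.18% of all genes), and edgeR called Ifi47, Gbp7 and Igtp without the cells that held markers of another lineage (5.88%, against 5.54%), so the share of members called was close to that of all genes in both settings. Without Bmal1 WT h3, edgeR called Ifi47, Gbp7 and Irf9 (5.88%, against 1.08%). The gamma-induced sum was 796, 753 and 916 CPM in Empty vector and 708, 712 and 427 CPM in Bmal1 WT, so the groups did not overlap.

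The classes with too few cells for a fit are given by level. In cDC1, the summed level was 2594, 2884 and 2821 CPM in Empty vector (25, 5 and 16 cells) and 2091, 1634 and 1484 CPM in Bmal1 WT (40, 18 and 22 cells), and the groups did not overlap. In plasmacytoid dendritic cells, the level was 5395, 4545 and 4395 CPM in Empty vector and 3735, 5480 and 7748 CPM in Bmal1 WT, the last from 1 cell. Fibroblasts ran from 2540 to 9005 CPM in Empty vector and 4222 to 5040 CPM in Bmal1 WT. Melanoma cells stood at 3960, 275 and 2110 CPM in Empty vector, with 3 cells behind the lowest value, and 1926, 2342 and 2522 CPM in Bmal1 WT. The groups overlapped in these last 3 classes.

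Of the melanoma cells, 56 of 112 in Empty vector and 186 of 289 in Bmal1 WT carried no hashtag, as did 98 of 142 and 174 of 226 fibroblasts. These entered no replicate, so both classes are also given per library, with exact Poisson 95% intervals that cover counting error only. Over every melanoma cell, the type I and other sum was 2366 CPM (2324 to 2408) in the Empty vector library and 1414 CPM (1394 to 1435) in Bmal1 WT, and the gamma-induced sum was 749 CPM (726 to 773) and 463 CPM (451 to 475). In melanoma cells without a hashtag, the gamma-induced sum was 836 CPM (784 to 890) and 218 CPM (207 to 230), while in those with 1 hashtag (53 and 99 cells) it was 714 CPM (688 to 742) and 686 CPM (666 to 706). The libraries thus lay further apart in the cells without a hashtag. Among the hashtagged Bmal1 WT melanoma cells, h5 held 926 CPM and h3 and h9 held 314 and 334 CPM. Over every fibroblast, the gamma-induced sum was 815 CPM (782 to 850) in Empty vector and 391 CPM (376 to 407) in Bmal1 WT. These values compare 2 libraries, with no replicates and no test.

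Of the 54 further genes of the interferon pathway, 36 were tested in T cells, 30 of them below 0, beside 60.7% of all genes tested there. Of the 36, edgeR called 1, against 0.123% of all genes. Samhd1, which depletes nucleotides available to viruses, fell in T cells from 339, 418 and 366 CPM in Empty vector to 216, 181 and 207 CPM in Bmal1 WT, a log2 fold change of -0.89 ± 0.12 (edgeR adjusted p = 0.0425). The adjusted p rose above 0.05 without Empty vector h1 (0.143) or h7 (0.142), without Bmal1 WT h3 (0.0544), h5 (0.139) or h9 (0.138), and with gates that left out Ly6c2, Plac8 and Tlr3 (0.0501), while the log2 fold change stayed between -0.96 and -0.79 in all 13 alternatives. Its log2 fold change was -0.46 ± 0.17 in monocytes (edgeR adjusted p = 0.373) and -0.28 ± 0.26 in NK cells (edgeR adjusted p = 0.682). Of the receptors in monocytes, Ifnar1 (131, 103 and 119 CPM against 125, 130 and 111 CPM) and Ifnar2 (117, 90.6 and 125 CPM against 114, 134 and 118 CPM) overlapped between the groups. The chemokine Cxcl9, a known target of interferon gamma, stood at 138, 401 and 487 CPM in Empty vector monocytes and 144, 149 and 6.42 CPM in Bmal1 WT (-1.67 ± 0.63, edgeR adjusted p = 0.400). In monocytes 33 of 39 pathway genes tested were below 0 (median -0.24), beside 58.0% of all genes tested. Of the 39, 0 were called by edgeR, and 10 had an unadjusted p under 0.05 with a lower level, against 6.6% of all genes. Psmb8 and Psmb9, subunits of the immunoproteasome, were above 0 in T cells (0.23 ± 0.10 and 0.31 ± 0.13), with unadjusted p-values under 0.05 and edgeR adjusted p-values of 0.210 and 0.225.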

How the data were processed

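The authors deposited raw UMI counts for each gene in each barcode, without normalization. They used Cell Ranger 6.1.2 per the file headers and build mm10 per the submitters' processing notes. The matrix deposited for Bmal1 bHLH held the same values as the one for Bmal1 WT, so the bHLH group was not used here. For strand use in counting, nothing was stated in these sources. Members, gene lists and classes were chosen with earlier results of these data known.

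Cells were kept with at least 200 genes and at most 20% mitochondrial UMIs. Hashtags were called from log counts in each library by fitting Gaussian mixtures of 2 components (scikit-learn 1.9.0), which set minimum counts of 19 to 135 in Empty vector and 17 to 159 in Bmal1 WT. Each cell took the class with the highest summed log level of its 8 markers. Doublets were not called, and cells with several hashtags (368 and 105) entered no replicate. CD8 and CD4 T cells were T cells with UMIs of Cd8a or Cd8b1, or of Cd4, and not of the other.

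UMIs were summed per class and replicate, scaled by total UMIs and tested with edgeR 4.0.16 (R 4.3.3), without covariates, at a Benjamini-Hochberg adjusted p of 0.05. SE is the fold change's size divided by the square root of F. The step was tested on simulated data. Members to be named were, per class, the called members or else the 3 smallest p-values, the 3 most abundant members and 12 fixed members. Some class paragraphs print only part of these. From the list of pathway genes, 1 is not reported here and entered no count over that list. Other genes named by their role or as pathway genes were picked after their values were seen. Alternatives were TMM scaling, DESeq2 1.42.0, no gene filter, each replicate left out, another hashtag call, a stricter cell filter (500 genes, 10% mitochondrial UMIs), equal weight per cell, all cells of a library, and other member lists. Gates without Ly6c2, Plac8 and Tlr3, and without cells holding markers of 2 lineages, were added after seeing the data.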

Additional observations from a re-analysis of the deposited data

How the results depend on the processing

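Of the comparisons of named members with an alternative, 112 of 1583 changed sign, in 51 of 125 pairs of member and class, and 107 of the 112 started within 1 SE of 0, so no direction is claimed for those members. No paired analysis was possible because the labels stated no link between replicates of the 2 groups. Only members with at least 100 UMIs in a class were tested, from 17 in mature dendritic cells to 50 in monocytes, and 1 library per group limits all comparisons of the groups.

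The number of members called was 0 in each class as reported. Without the filter on gene counts it was 15 in T cells, 6 in CD4 T cells, 18 in monocytes, 8 in macrophages and 1 in cDC2, and the cause was not tested. The shares of all genes called were then 5.07%, 2.21%, 1.16%, 0.915% and 0.354%. Without cells holding markers of 2 lineages it was 1 in T cells (2.63% of members, against 3.61% of all genes) and 3 over all cells (5.88%, against 5.54%), and with DESeq2 it was 4 over all cells (7.84%, against 8.18%). Leaving out 1 replicate gave 0 to 2 in CD4 T cells and 0 to 3 over all cells, in each case more than 0 only without Bmal1 WT h3. Over all genes, T cells had 10 called by edgeR, 256 by DESeq2 and 827 without the filter on gene counts, and NK cells had 22, 90 and 160. Monocytes had 0, 4 and 170, and all cells 0, 985 and 0. In monocytes the members below 0 numbered 43 to 50 and their median ran from -0.85 to -0.49 when 1 replicate was left out. TMM scaling moved the median of all genes by less than 0.1 in each class.

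The log2 ratio of summed levels, Bmal1 WT over Empty vector, moved from -0.32 to -0.063 in CD4 T cells without cells holding markers of 2 lineages. In cDC1 it moved from -0.67 to -0.41 with gates that left out Ly6c2, Plac8 and Tlr3. In plasmacytoid dendritic cells it was 0.24 as reported, -0.45 with hashtags called by the highest centred log count, -0.24 without cells holding markers of 2 lineages and -0.57 over every cell. With Iigp1, Ifi47 and Irf1 counted as gamma-induced, the log2 ratio of type I to gamma-induced transcripts was 0.82 in T cells, 0.98 in CD8 T cells, 0.82 in CD4 T cells, 0.38 in NK cells, 2.66 in monocytes, 2.31 in cDC1, 1.66 in cDC2, 0.037 in mature dendritic cells, 2.51 in plasmacytoid dendritic cells, 1.70 in fibroblasts and 1.55 over all cells, lower by construction since members left the numerator.

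Named members changed sign as follows, and the cause was not tested. With TMM scaling, the log2 fold change was 0.024 for Ifi27l2a and 0.033 for Bst2 in monocytes, 0.045 for Irf1 in mature dendritic cells and 0.089 for Isg15 in NK cells. With DESeq2 it was 0.019 for Ifi27l2a and 0.029 for Bst2 in monocytes, 0.044 for Irf1 in mature dendritic cells, 0.0029 for Stat2 in macrophages and -0.0079 for Ifitm3 in NK cells. With gates that left out Ly6c2, Plac8 and Tlr3 it was 0.093 for Bst2 in monocytes and -0.010 for Ifi203 in NK cells. With the other hashtag call it was -0.054 for Isg15 in CD8 T cells, -0.27 for Ifitm3, -0.060 for Irf7 and -0.22 for Ifi27l2a in NK cells, and 0.050 for Ifit3 and -0.061 for Bst2 over all cells. With the stricter cell filter it was 0.00044 for Isg15 in NK cells. Without cells holding markers of 2 lineages it was 0.18 for Isg15 and -0.015 for Ifi203 in NK cells, -0.25 for Iigp1 in macrophages, 0.011 for Ifi27l2a in CD4 T cells, -0.067 for Isg15 in CD8 T cells, and -0.014 for Ifitm3 over all cells. In mature dendritic cells it was then 0.11 for Irf1, 0.027 for Gbp5 and -0.30 for Ifitm3.

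When 1 replicate was left out, the following log2 fold changes ran through 0. In T cells the values ran from -0.69 to 0.15 for Ifi27l2a, -0.24 to 0.027 for Irf1, -0.047 to 0.84 for Iigp1 and -0.21 to 0.15 for Bst2. In CD8 T cells the values ran from -0.73 to 0.20 for Ifi27l2a, -0.066 to 0.27 for Ifi203, -0.50 to 0.49 for Isg15, -1.45 to 0.036 for Rsad2, -0.48 to 0.044 for Irf1 and -0.014 to 0.52 for Bst2. In CD4 T cells the values ran from -0.68 to 0.046 for Ifi27l2a, -0.70 to 0.046 for Irf1, -0.13 to 0.63 for Gbp2, -0.057 to 0.29 for Igtp, -2.62 to 0.066 for Ifitm3 and -0.014 to 0.15 for Bst2. In NK cells the values ran from -0.085 to 0.68 for Bst2, -0.16 to 0.13 for Ifi203, -0.25 to 0.33 for Isg15, -0.54 to 0.17 for Rsad2, -0.22 to 0.21 for Irf7 and -0.20 to 0.25 for Gbp2. In monocytes the values ran from -0.21 to 0.072 for Ifitm3, -0.31 to 0.11 for Ifi27l2a, -0.88 to 0.055 for Gbp2, -1.47 to 0.30 for Iigp1 and -0.18 to 0.050 for Bst2. In macrophages the values ran from -0.50 to 0.42 for Ifi27l2a, -2.83 to 1.36 for Rsad2, -1.28 to 1.39 for Isg15, -0.96 to 0.0018 for Gbp2 and -0.34 to 1.18 for Iigp1. In cDC2 the values ran from -0.34 to 0.18 for Ifitm3, -0.48 to 0.051 for Gbp2, -1.11 to 0.67 for Iigp1 and -0.37 to 0.092 for Bst2. In mature dendritic cells the values ran from -0.21 to 0.17 for Irf1, -0.31 to 0.048 for Gbp2, -0.084 to 0.74 for Isg15, -0.40 to 0.74 for Ifitm3, -0.69 to 0.29 for Bst2 and -0.24 to 0.86 for Ifi27l2a. Over all cells the values ran from -0.13 to 0.26 for Ifitm3, -0.50 to 0.26 for Gbp2, -0.69 to 0.041 for Isg15, -0.76 to 0.58 for Ifit3 and -0.0052 to 0.19 for Bst2. Of these members, Bst2 in CD8 T cells and NK cells, Gbp2 in monocytes and macrophages and Rsad2 in macrophages had a reported value of at least 1 SE.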
